A study of Mus musculus with 16 samples.

Results

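Iron handling in the liver was followed through 10 genes. These were the hepcidin genes Hamp and Hamp2, the receptors Tfrc and Tfr2, the membrane protein Hfe and the plasma proteins Trf and Cp. The exporter Slc40a1 and the ferritin chains Fth1 and Ftl1 made up the rest. All 10 were found by matching the transcript identifier given for each array probe to its gene symbol, whatever the probe's values. This gave 14 of the 55681 probes on the array, and 13 of the 14 were bright enough to be tested, among 29690 tested probes in all. The exception was the Tfrc probe A_51_P167876, which no array measured well above background. All 10 genes had at least 1 tested probe, and the array named 20660 genes by symbol in all.

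The livers came from female B6C3F1 mice, a hybrid strain used in toxicology, bought at 5 to 6 weeks of age and acclimatized for at least 7 days. Furan is a small volatile compound that injures the mouse liver. Treated mice were gavaged with 8 mg/kg for 21 days in a corn oil vehicle, which the control mice were given without furan, and livers were taken 4 h after the last dose. The 4 groups were furan livers kept 3 weeks in formalin (4 samples), control livers kept 3 weeks in formalin (3 samples on 4 arrays), furan livers kept 18 h in formalin (4 samples) and control livers kept 18 h in formalin (4 samples). All were then embedded in paraffin, and RNA came from 2 sections of 10 µm at 3 weeks and from 1 such section at 18 h, so time in formalin and amount of tissue cannot be told apart. The labels name 4 biological replicates per dose group, and the 3-week control arrays 2.1 and 2.2, which share a sample number, were averaged as 1 sample.

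Each of the 16 arrays carried 1 liver sample in Cy5 and a pool of all samples in Cy3, without a dye swap. Values below are log2 ratios of sample over pool after loess normalization within the array, so a value of 0 means the pool's level for probes of that brightness. Ratios compare samples for 1 probe, and the level of a probe was not set against that of another. A difference between groups was called at an adjusted p under 0.05 from limma, with Benjamini-Hochberg adjustment over all 29690 tested probes and the slide as a term. The RNA was degraded, with integrity numbers between 1.3 and 2.4 per the labels. Probes well above background made up 38.1 ± 2.39% of those on the array in furan and 34.3 ± 1.77% in control livers at 3 weeks (SD, n = 4 and 3; difference 3.84 points, exact permutation test, two-sided p = 0.0571), and the share was 53.7 ± 1.48% in furan and 47.3 ± 3.18% in control livers at 18 h (SD, n = 4 each; difference 6.40 points, exact p = 0.0286, the smallest these samples allow). No array had a saturated spot in the sample channel.

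The liver sets the body's iron supply through hepcidin, a peptide hormone made mainly by hepatocytes. Hepcidin binds ferroportin, the iron exporter encoded by Slc40a1, and causes its internalization and degradation, so that less iron leaves macrophages, hepatocytes and gut cells. Its gene responds to body iron through bone morphogenetic protein (BMP) and SMAD signalling, with HFE and transferrin receptor 2 as sensors, and to inflammation through IL-6 and STAT3. Mice carry a pair of neighbouring hepcidin genes, of which Hamp encodes the iron-regulatory hormone. The function of Hamp2 is less clear. Inside the cell, iron is stored in ferritin, and iron-regulatory proteins bind the messenger RNAs of the ferritin chains and of transferrin receptor 1.

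The promoters of the pair are shown because both genes moved together in these livers. They are the 250 bases before the start site on the minus strand, taken from RefSeq on build GRCm38.p6, at chr7:30944030-30944279 for Hamp and at chr7:30924182-30924431 for Hamp2. Capitals mark matches to GGCGCC, the core of a BMP-responsive element, and to TTCTTGGAA, a STAT site, each searched on both strands.
Hamp: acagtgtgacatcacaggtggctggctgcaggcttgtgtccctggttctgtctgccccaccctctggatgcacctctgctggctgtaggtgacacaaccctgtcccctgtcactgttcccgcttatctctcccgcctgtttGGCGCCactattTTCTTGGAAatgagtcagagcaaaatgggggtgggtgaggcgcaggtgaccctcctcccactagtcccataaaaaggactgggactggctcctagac
Hamp2: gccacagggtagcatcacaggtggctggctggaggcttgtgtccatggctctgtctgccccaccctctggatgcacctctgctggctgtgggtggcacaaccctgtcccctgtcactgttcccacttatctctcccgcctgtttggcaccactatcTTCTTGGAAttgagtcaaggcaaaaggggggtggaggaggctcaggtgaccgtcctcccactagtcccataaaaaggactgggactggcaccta
In a global alignment, 227 of 253 columns held the same base in both windows (89.7%). TTCTTGGAA lay 97 to 89 bases before the Hamp start and 94 to 86 bases before the Hamp2 start. GGCGCC lay 109 to 104 bases before the Hamp start and was not among the letters of the Hamp2 window. Of the 32851 mouse promoters in the table, 3149 (9.59%) held GGCGCC and 120 (0.365%) held TTCTTGGAA in windows of the same length. Among the 8 member genes with a promoter there (13 promoters), the other match was GGCGCC in 1 of the 2 Tfrc promoters. A match describes the letters only, and no binding was measured.

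Both hepcidin genes were lower in furan livers at 18 h. Hamp, the hormone gene, stood at 0.20, -0.18, -0.10 and -0.02 in furan samples 41 to 44, against 0.42, 0.60, 0.67 and 1.45 in control samples 2, 3, 4 and 6. Every furan liver was below every control liver, and control 6 was the highest. Hamp fell by 0.81 on the log2 scale (SE 0.19, limma adjusted p = 0.00533), which is 1.75-fold lower. Its difference was -0.63 on slide 1 and -0.99 on slide 2. The call does not hold when arrays are centred on their median without loess, where the difference was -0.28 (adjusted p = 0.180).

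Hamp2 stood at 0.17, -0.98, -0.61 and 0.07 in the same furan samples, against 0.49, 0.59, 0.90 and 1.84 in the control samples. The groups did not overlap, and furan samples 42 and 43 were the lowest, as control 6 was the highest. Hamp2 fell by 1.29 on the log2 scale (SE 0.30, limma adjusted p = 0.00534), or 2.45-fold, with -1.15 on slide 1 and -1.43 on slide 2. It kept its call in all 18 alternatives, with differences between -1.55 and -0.77. The coding sequences of the pair are close, so how far each probe also binds the other transcript was not tested. In bulk tissue, fewer cells of a type and less RNA per cell cannot be told apart.

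At 3 weeks in formalin neither gene passed the test. Hamp stood at -0.79, -1.32, -1.08 and -1.29 in furan samples 41 to 44, against -0.77, -0.82 and -0.31 in control samples 2, 4 and 6. The groups overlapped through furan sample 41. The difference was -0.49 (SE 0.18, limma adjusted p = 0.282). Hamp2 stood at -0.41, -1.48, -1.32 and -0.96 in the furan samples, against -0.60, -0.39 and 0.36 in the control samples, with furan sample 41 again within the control range. The difference was -0.83 (SE 0.28, limma adjusted p = 0.240). The change in the furan difference between the times was 0.32 for Hamp (SE 0.28, adjusted p = 0.483) and 0.46 for Hamp2 (SE 0.47, adjusted p = 0.554), so a loss of the furan difference at 3 weeks was not shown.

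**Figure D1:**
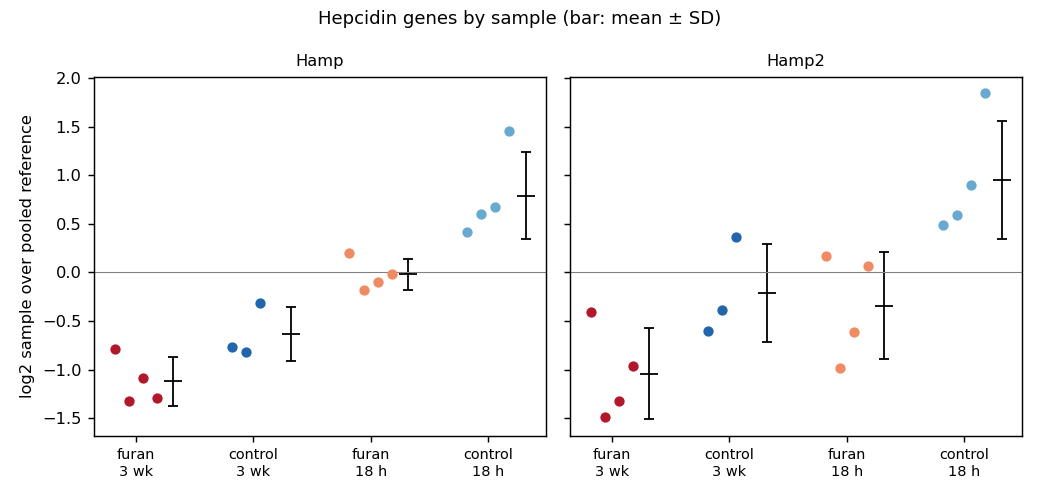
Log2 ratio of sample over pool (vertical axis) for Hamp and Hamp2 in furan livers at 3 weeks, control livers at 3 weeks, furan livers at 18 h and control livers at 18 h. Points are samples and bars are the mean ± SD. At 18 h the furan points lie below all control points for both genes, and at 3 weeks the groups overlap.

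With the 4 groups pooled, the hepcidin genes varied more within groups than most tested probes, Hamp2 the more so. The standard deviation pooled over the 4 groups was 0.54 for Hamp2 and 0.31 for Hamp, against a median of 0.20 over the tested probes. Hamp2 exceeded 99.6% of tested probes and Hamp 90.6%. By group, the standard deviation of Hamp ran from 0.16 in 18 h furan to 0.45 in 18 h control livers, and that of Hamp2 from 0.47 to 0.61. At the other end, Fth1 with 0.08 and Tfr2 with 0.09 exceeded 1.74% and 2.14% of them.

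With loess the receptors and sensors moved less at 18 h than the hepcidin genes. This order did not hold with median centring, where Hfe (0.76) and Tfr2 (0.60) differed by more than Hamp (-0.28). Hfe, an MHC class I-like protein that binds the transferrin receptors and is mutated in hereditary haemochromatosis, stood at -0.15, -0.21, 0.09 and -0.20 in furan samples at 18 h, against -0.55, -0.64, -0.37 and -0.50 in controls. All 4 furan livers were above all 4 control livers. Hfe rose by 0.40 (SE 0.10, limma adjusted p = 0.00717), with 0.32 on slide 1, where it lost the call (adjusted p = 0.126), 0.47 on slide 2 and 0.76 with median centring. At 3 weeks it stood at 1.16, 1.21, 0.86 and 0.90 in furan samples, against 0.37, 0.79 and 0.93 in controls, with overlap, and the difference of 0.34 did not pass the test (SE 0.17, limma adjusted p = 0.404).

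Tfr2, the transferrin receptor of hepatocytes that acts as an iron sensor, ranged from -0.20 to 0.00 in furan samples and from -0.26 to -0.08 in controls at 18 h. Its furan difference was 0.05 at 18 h (SE 0.08, limma adjusted p = 0.617) and 0.06 at 3 weeks (SE 0.13, adjusted p = 0.890). With median centring in place of loess the 18 h value became 0.60 (adjusted p = 0.000234). Its slide values were 0.07 and 0.02.

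Tfrc, the transferrin receptor that most cells use for iron uptake, was dim on all 3 of its probes. A_65_P06446 stood at 0.57, 0.68, 0.04 and 0.46 in furan samples at 18 h, against 0.06, -0.24, -0.02 and 0.09 in controls. Furan sample 43 lay within the control range. The probe was well above background on 3 of 4 furan arrays at 18 h and on no array of the other 3 groups. It entered the test only through the group where it was high, so its values are a description and no p is given. The probe is left out of the counts below, except those over all 13 tested probes in the section on processing. Its log2 difference at 18 h varied with the setting, with 0.75 on slide 1, 0.18 on slide 2 and 1.74 with Agilent's ratio. With the main processing, the normalized log2 Cy5 signal averaged 7.05 in furan and 6.52 in control livers. This gave a bound of at least 1.26-fold higher in furan livers. The log2 differences of 0.18 on slide 2, 0.28 without background subtraction, 0.29 in the authors' table and 0.30 with median centring were smaller than this fold. Those on slide 1 and with Agilent's ratio were larger. The bound sets the furan mean against, on each control array, the dimmest probe well above background or the probe's own signal, whichever is higher, and it is open to dye bias without a dye swap.

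A_52_P228236 stood at -0.15, 0.07, -0.11 and 0.28 in furan samples and at -0.11, -0.14, 0.00 and 0.01 in controls at 18 h, a difference of 0.08 (SE 0.11, limma adjusted p = 0.535). At 3 weeks no array had either of these probes well above background, so no fold is given there. The untested probe A_51_P167876 ranged from -0.10 to 0.79 in furan and from -0.44 to 0.06 in control livers at 3 weeks, and from -0.44 to 0.11 in furan and from -0.22 to 0.14 in control livers at 18 h.

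Among the genes of plasma proteins, a Trf probe and Cp fell at 18 h, and the Cp call was lost in most alternatives. Trf encodes transferrin, the iron carrier of plasma made by hepatocytes. Its probe A_55_P2037585 stood at 0.04, 0.12, -0.13 and 0.12 in furan samples, against 1.05, 0.91, 0.96 and 0.90 in controls. The groups were far apart and tight, and the probe fell by 0.92 (SE 0.09, limma adjusted p = 3.78e-05), or 1.89-fold, with -0.86 on slide 1 and -0.98 on slide 2. It kept its call in all 17 alternatives, though median centring brought the difference to -0.40.

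The second Trf probe, A_55_P2037584, carries the same transcript identifier and did not show this. It stood at -0.38, -0.09, -0.29 and -0.14 in furan samples, against -0.03, -0.06, -0.09 and -0.14 in controls at 18 h, with overlap. The difference was -0.15 (SE 0.09, limma adjusted p = 0.209), and median centring turned its sign to 0.38. Which probe follows the amount of transferrin mRNA was not tested, so no single direction is given for the gene. At 3 weeks A_55_P2037585 stood at -1.19, -1.22, -1.10 and -1.45 in furan samples, against -0.51, -0.90 and -1.12 in controls, a difference of -0.40 (SE 0.17, limma adjusted p = 0.331). A_55_P2037584 differed by 0.14 there (SE 0.16, adjusted p = 0.746).

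Cp encodes ceruloplasmin, the plasma ferroxidase that oxidizes iron for loading onto transferrin. It stood at -0.11, 0.09, -0.05 and 0.00 in furan samples, against 0.46, 0.25, 0.29 and 0.06 in controls at 18 h. Furan sample 42 lay above control 6, so the groups overlapped. Cp fell by 0.28 (SE 0.10, limma adjusted p = 0.0405), with -0.28 on each slide, but the call was lost in 6 of the 8 fits that leave out 1 sample (lost without control 2, 3 or 4 and without furan sample 41, 43 or 44, adjusted p between 0.0700 and 0.118), and median centring turned the sign to 0.26. At 3 weeks the difference was 0.07 (SE 0.17, adjusted p = 0.911).

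Slc40a1 encodes ferroportin, the exporter that hepcidin controls. It stood at 0.09, 0.14, 0.00 and -0.03 in furan samples, against 0.00, 0.07, 0.23 and -0.29 in controls at 18 h. The furan samples lay inside the control range, with a difference of 0.05 (SE 0.09, limma adjusted p = 0.679), -0.04 on slide 1 and 0.14 on slide 2. At 3 weeks it ranged from 0.39 to 0.81 in furan and from 0.27 to 0.66 in control livers, a difference of 0.08 (SE 0.13, adjusted p = 0.854). Median centring gave 0.54 at 18 h (adjusted p = 0.000783).

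The ferritin chains differed between probes. Fth1, the heavy chain with ferroxidase activity, stood at -0.10, -0.11, -0.03 and -0.08 in furan samples, against -0.30, -0.30, -0.18 and 0.03 in controls at 18 h. Control 6 lay above all furan samples, and the difference was 0.11 (SE 0.09, limma adjusted p = 0.365), against 0.65 with median centring (adjusted p = 0.000174). Ftl1, the light chain that helps the iron core form, had probe A_55_P1983959 at 0.31, 0.36, 0.10 and 0.23 in furan samples, against 0.48, 0.64, 0.74 and 0.65 in controls. All furan samples were below all controls, and the probe fell by 0.38 (SE 0.08, limma adjusted p = 0.00397), with -0.35 on slide 1 (adjusted p = 0.0782) and -0.40 on slide 2 (0.0595), while median centring turned its sign to 0.17.

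The other Ftl1 probe, A_55_P1968245, with the same transcript identifier, stood at -0.26, -0.34, -0.34 and -0.27 in furan samples, against -0.40, -0.33, -0.39 and -0.33 in controls at 18 h, a difference of 0.06 (SE 0.08, limma adjusted p = 0.520). The probe was called with median centring (0.60, adjusted p = 0.00022) and in the authors' table (0.21, adjusted p = 0.0355). Ferritin chains have many processed pseudogenes, so both chains are reported as uncertain in identity. At 3 weeks A_55_P1968245 stood at 0.59, 0.76, 0.97 and 0.87 in furan samples, against 0.35, 0.56 and 0.53 in controls, and Fth1 at -0.46, -0.45, -0.39 and -0.49 in furan samples, against -0.59, -0.61 and -0.59 in controls. The furan livers were above all controls for both probes, but neither difference passed the test: 0.32 (SE 0.14, limma adjusted p = 0.341) and 0.15 (SE 0.12, adjusted p = 0.645). With median centring 4 member probes were called higher at 3 weeks: Ftl1 A_55_P1968245 (0.78, adjusted p = 0.00986), Fth1 (0.60, 0.0236), Trf A_55_P2037584 (0.58, 0.0314) and Cp (0.53, 0.0487). A_55_P1983959 differed by -0.13 at 3 weeks (SE 0.16, adjusted p = 0.781).

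**Figure D2:**
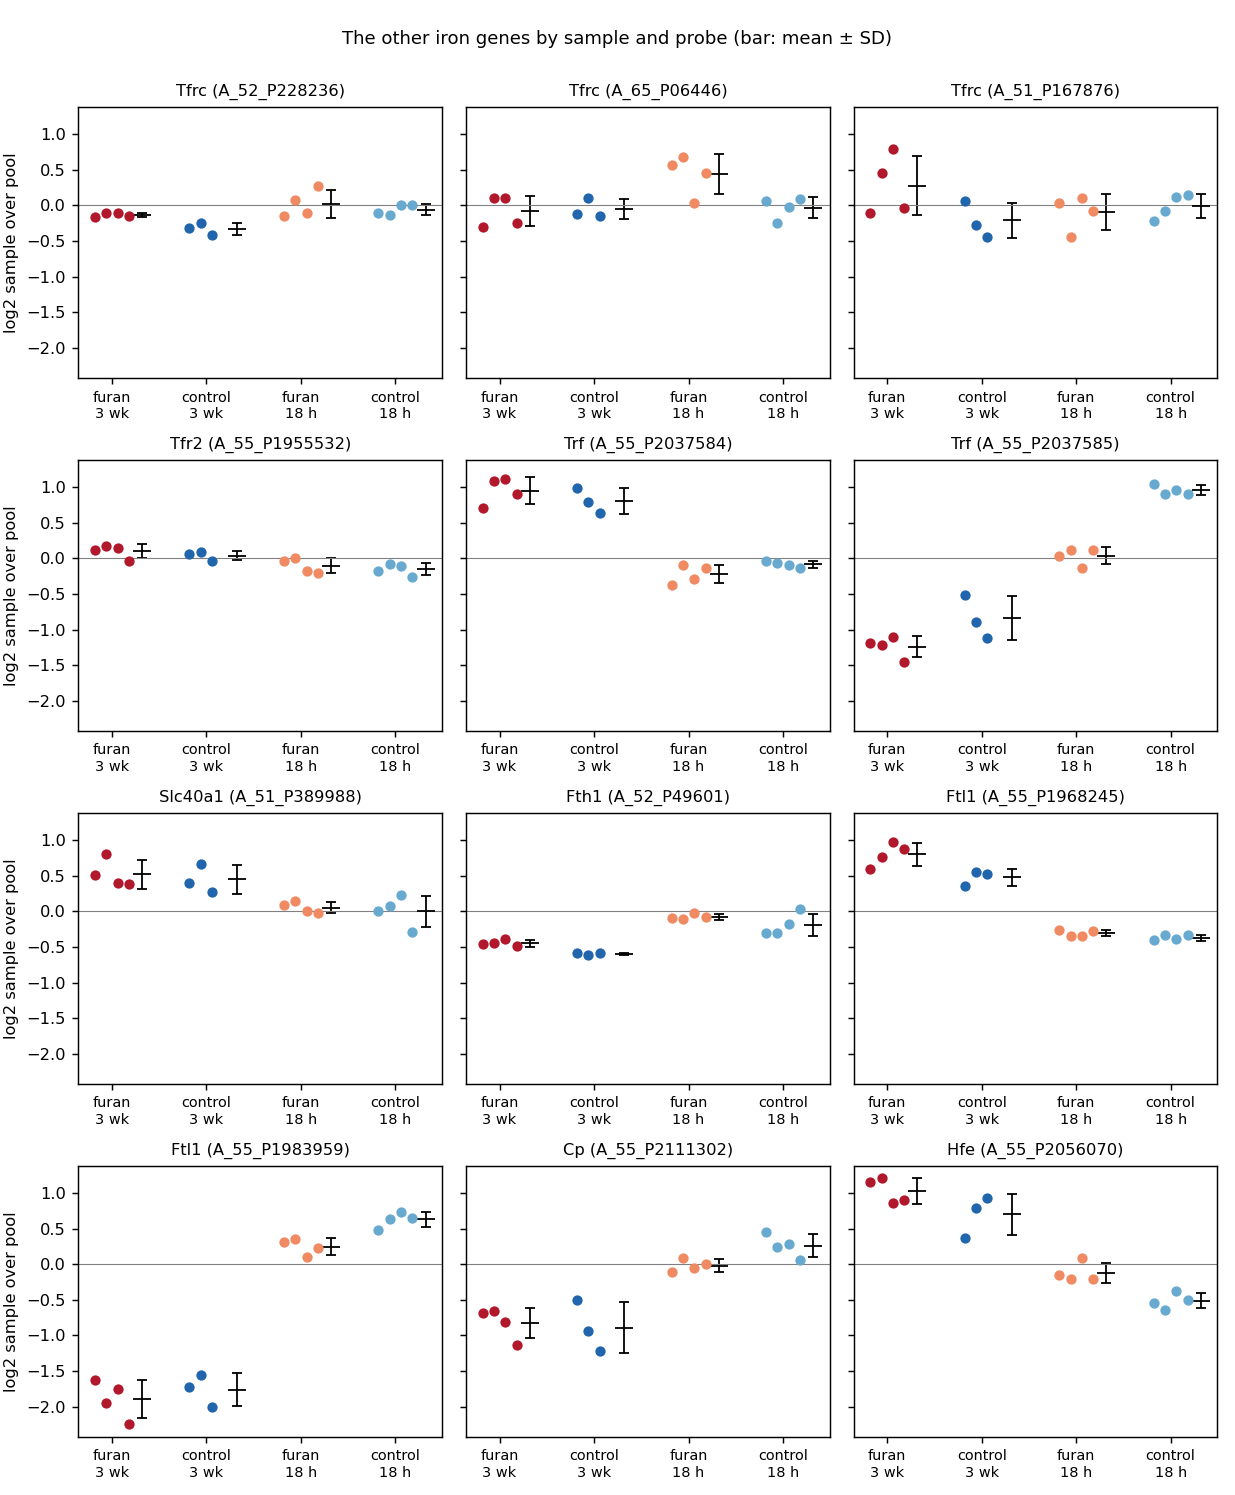
Log2 ratio of sample over pool (vertical axis, the same scale in each panel) for the 12 other probes, 1 panel each, in furan livers at 3 weeks, control livers at 3 weeks, furan livers at 18 h and control livers at 18 h. Points are samples and bars are the mean ± SD. The probe pairs of Trf and of Ftl1 run in opposite directions between the times, and the Tfrc points lie between -0.44 and 0.79.

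Counted over the 12 probes measured above background in both 18 h groups, 6 were called, against 47.2% of all tested probes. Of these, Hfe was higher in furan livers (20.4% of all tested probes were called higher) and 5 were lower: Hamp, Hamp2, Trf A_55_P2037585, Ftl1 A_55_P1983959 and Cp (26.8% were called lower). The furan and control samples did not overlap for 5 of the 12, where 39.2% of all tested probes did not. The median difference was -0.05 over the 12 probes and -0.05 over all tested probes. These shares are near those of the whole array. Over all tested probes the calls split into 6056 higher and 7969 lower, and into 9863 and 2680 with median centring or 7758 and 6336 in the authors' table.

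At 3 weeks none of the 11 probes above background was called by limma, where 0.118% of all tested probes were (0.0876% higher and 0.0303% lower). An unadjusted p under 0.05 was reached by 4 of the 11 (Hamp, Hamp2, Trf A_55_P2037585 and Ftl1 A_55_P1968245) and by 13.8% of all tested probes. Furan and control samples did not overlap for 2 (Fth1 and Ftl1 A_55_P1968245, both higher in furan), where 13.4% of all tested probes did not. The furan difference itself changed between the times in none of these 11 probes by limma, where 12.8% of all tested probes were called (7.82% higher and 4.93% lower at 3 weeks). An unadjusted p under 0.05 was reached by 1 of the 11 and by 28.6% of all tested probes. That probe was Trf A_55_P2037585, whose furan difference was 0.52 higher at 3 weeks than at 18 h (SE 0.18, adjusted p = 0.0689). It was called for this change without background subtraction (0.53, adjusted p = 0.0294), with Agilent's ratio (0.76, 0.022), in the authors' table (0.56, 0.00927), without 3-week control 2 (0.69, 0.0146) and without 3-week furan sample 44 (0.59, 0.0465). A p above the threshold does not show that the furan differences were alike at both times.

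**Figure D3:**
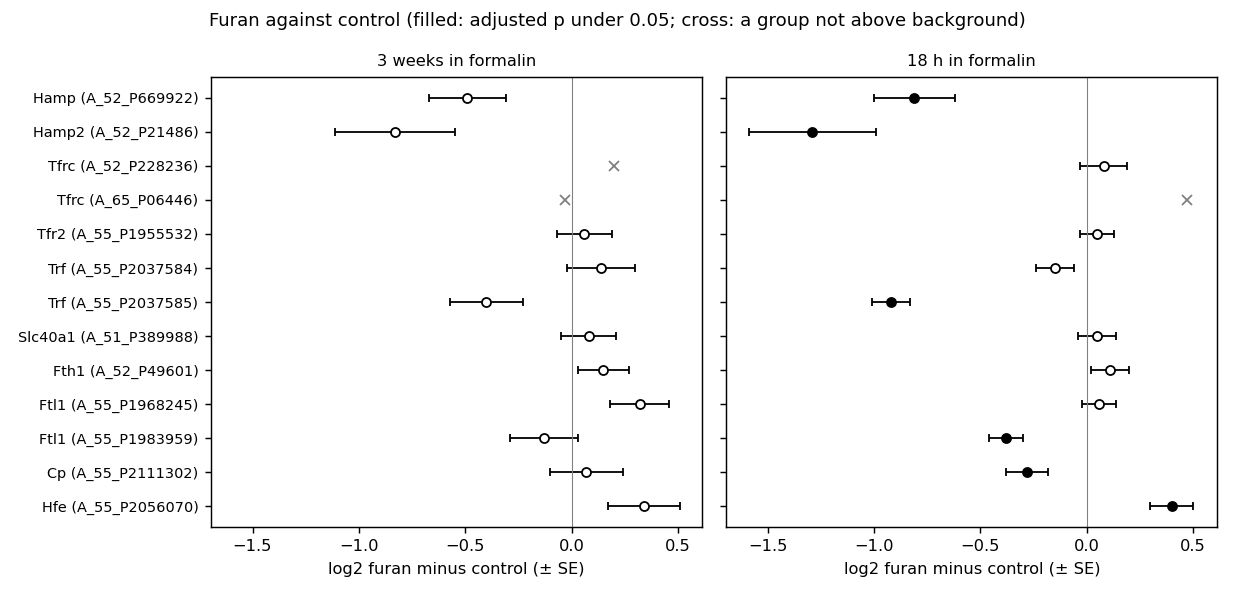
Log2 difference of furan minus control livers (horizontal axis, points with SE bars) for the 13 tested probes, at 3 weeks on the left and at 18 h on the right. Filled points passed the test, and crosses are Tfrc probes not above background in at least 1 of the groups compared, drawn without SE. Hamp2 has the lowest value at each time, -0.83 at 3 weeks and -1.29 at 18 h. The 18 h values of Trf A_55_P2037584, Ftl1 A_55_P1983959 and Cp change sign with median centring.

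The 11 probes other than those of Tfrc all differed between livers kept 3 weeks and livers kept 18 h in formalin, which also differ in the number of sections. They split into 5 higher and 6 lower at 3 weeks, where 74.2% of all tested probes were called (37.3% higher and 36.9% lower). Averaged over furan and control, Hamp fell by 1.26 at 3 weeks (SE 0.14, limma adjusted p = 5.26e-07) and Hamp2 fell by 0.93 (SE 0.23, adjusted p = 0.00179). In order of level, Hamp was highest in 18 h control, then 18 h furan, 3-week control and 3-week furan livers, and only the 3-week groups overlapped. For Hamp2 the 18 h controls stood apart, and the neighbouring groups after them (3-week control, 18 h furan, 3-week furan) overlapped.

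The paired probes of Trf and Ftl1 moved in opposite directions. Trf A_55_P2037584 averaged 0.95 ± 0.19 in furan and 0.81 ± 0.18 in control livers at 3 weeks (SD, n = 4 and 3), and -0.22 ± 0.13 in furan and -0.08 ± 0.05 in control livers at 18 h (SD, n = 4 each). It rose by 1.03 at 3 weeks (SE 0.08), while A_55_P2037585 fell by 1.54 (SE 0.09). Ftl1 A_55_P1968245 rose by 0.97 (SE 0.07), while A_55_P1983959 fell by 2.27 (SE 0.09), which is 4.81-fold lower. These 4 differences kept their direction and call in every alternative run.

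Hfe rose by 1.18 at 3 weeks (SE 0.10, limma adjusted p = 9.00e-09), against 0.49 with median centring, and its order of level was 3-week furan, 3-week control, 18 h furan and 18 h control livers, with overlap between the 3-week groups only. Cp fell by 0.98 (SE 0.10), Fth1 fell by 0.39 (SE 0.07) and Tfr2 rose by 0.20 (SE 0.06, adjusted p = 0.00891). The Tfr2 call was lost with median centring (0.05), on slide 1 (0.19), on slide 2 (0.21) and with the sample number as a block (adjusted p = 0.0520). Slc40a1 rose by 0.46 (SE 0.07), a direction that turned to -0.25 with median centring, where the median of all tested probes was -0.26. The Tfrc probe A_52_P228236 was not above background at 3 weeks. By the bound on normalized signal with the main processing, it was at least 1.1-fold lower there in furan and at least 1.04-fold lower in control livers. For A_65_P06446, which entered only through the 18 h furan livers, the bound of at least 1.09-fold lower at 3 weeks in furan livers is a description. In control livers this probe was not above background at either time.

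**Figure D4:**
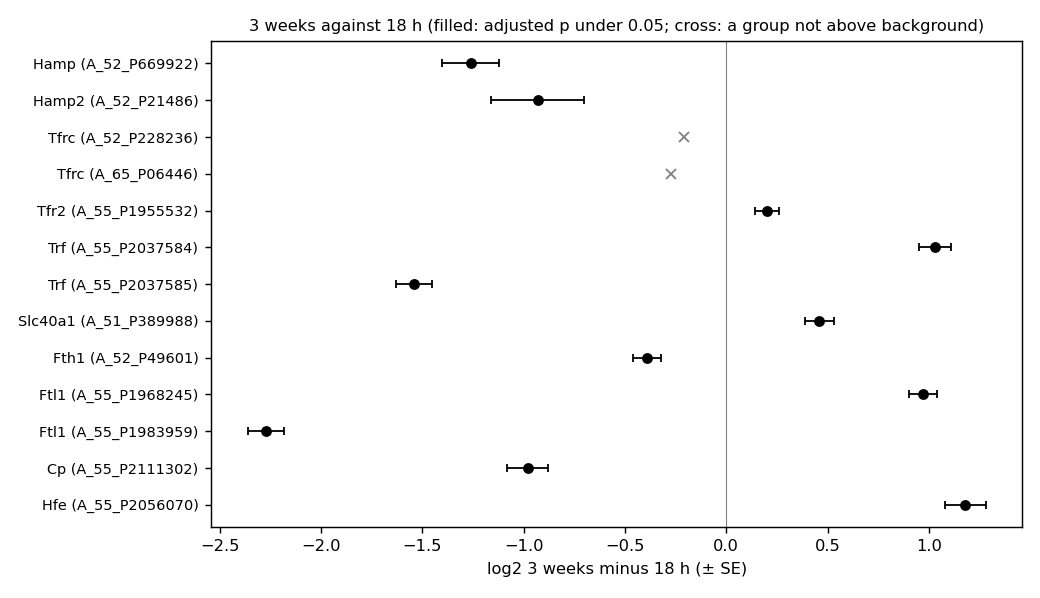
Log2 difference of 3 weeks minus 18 h in formalin, averaged over furan and control livers (horizontal axis, points with SE bars), for the 13 tested probes. Filled points passed the test, which all 11 probes outside Tfrc did, and crosses are the 2 Tfrc probes, not above background at 3 weeks. The 2 Trf probes lie at 1.03 and -1.54 and the 2 Ftl1 probes at 0.97 and -2.27, and Slc40a1 changes sign with median centring.

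Other genes of iron metabolism were followed in 7 lists of 82 genes, of which 76 could be tested, each by its brightest probe. At 18 h 26 were higher and 22 lower in furan livers, and 28 did not pass the test, with a median difference of 0.02. With median centring the split was 39 higher and 14 lower. At 3 weeks none of the 76 passed the test in limma. In all, 48 of the 76 were called at 18 h, where 47.2% of all tested probes were (20.4% higher and 26.8% lower). The list genes were counted by their brightest probe, while the shares cover every tested probe, dim ones included. The counts and shares are therefore not alike, and the lists were not tested as sets.

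Among the upstream regulators of hepcidin, the 17 genes of BMP and SMAD signalling gave 7 higher, 4 lower and 6 that did not pass the test. Acvr1, a BMP type I receptor, rose by 0.93 on the log2 scale (SE 0.08, limma adjusted p = 2.46e-05), although its other probe differed by -0.19. Eng, the co-receptor endoglin of endothelial cells, fell by 0.89 (SE 0.09, adjusted p = 3.53e-05). Hjv and Id1, described next, were chosen after their values were seen.

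Hjv, hemojuvelin, the BMP co-receptor needed for hepcidin expression, stood at -0.33, -0.54, -0.30 and -0.17 in furan samples, against 0.88, 0.53, 0.98 and 0.21 in controls at 18 h. It fell by 0.99 (SE 0.16, limma adjusted p = 0.000649). Id1, a common target of BMP and SMAD signalling, stood at 0.64, -0.10, 0.42 and 0.04 in furan samples, against -0.76, -0.68, -0.84 and -0.35 in controls. It rose by 0.91 (SE 0.16, adjusted p = 0.00124). For both genes the 18 h groups did not overlap. Elsewhere in this list Smad7 rose by 0.33 (limma adjusted p = 0.0253), Smad6 differed by -0.03 (0.799) and Smad1 fell by 0.87 (5.39e-05). The part of this pathway in the Hamp values was not tested.

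Of the 9 genes of IL-6 and STAT3 signalling 3 were higher and 2 lower. Stat3, the transcription factor of this arm, rose by 0.56 (SE 0.09, limma adjusted p = 0.000811) on its brightest probe, but its other probe was called in the opposite direction with -0.37. Jak2, a kinase upstream of STAT proteins, rose by 0.44 (SE 0.08, adjusted p = 0.00150).

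Heme synthesis had 1 higher and 3 lower of 8 genes. Ppox, an enzyme of the pathway, fell by 1.08 (SE 0.11, limma adjusted p = 4.64e-05). In heme breakdown, transport and scavenging 6 were higher and 4 lower of 11. Hp, haptoglobin, the plasma scavenger of free haemoglobin, rose by 0.59 (SE 0.09, adjusted p = 0.000406), and Hmox2, the constitutive heme oxygenase, fell by 0.88 (SE 0.10, adjusted p = 6.62e-05), while its other probe differed by -0.19. Hmox1, the inducible heme oxygenase, was also chosen after its values were seen. It stood at 1.45, 0.08, 0.21 and -0.28 in furan samples, against -0.55, -0.54, -0.39 and -0.60 in controls, and rose by 0.89 (SE 0.26, adjusted p = 0.0153), a call that was lost without control 3 (0.79, adjusted p = 0.0561) and on slide 2 alone (0.54, adjusted p = 0.0593).

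Among 11 genes of iron uptake, reduction and chaperones 3 were higher and 3 lower. Pcbp2, an iron chaperone, rose by 0.73 (SE 0.08, limma adjusted p = 6.44e-05, other probe 0.50), and Lrp1, a receptor that takes up heme bound to hemopexin, fell by 0.86 (SE 0.09, adjusted p = 5.10e-05). Of 7 genes of the iron-regulatory protein system 1 was higher and 2 lower. Ireb2, which encodes iron-regulatory protein 2, fell by 0.37 (SE 0.10, adjusted p = 0.0121), a call lost on slide 1 (adjusted p = 0.0850) and on slide 2 (0.102) alone. Cdc42bpa, a kinase whose mRNA carries an iron-responsive element, fell by 0.94 (SE 0.10, adjusted p = 5.51e-05), but its 3 other probes differed by 0.35, -0.38 and -0.17. In mitochondrial iron and iron-sulfur assembly 5 were higher and 4 lower of 13. Slc25a37, the mitochondrial iron importer mitoferrin, fell by 0.77 (SE 0.09, adjusted p = 9.91e-05), with 0.25 on its other probe, and Isca2, an iron-sulfur assembly factor, fell by 0.60 (SE 0.08, adjusted p = 0.000187), a call lost with median centring (-0.22, adjusted p = 0.156).

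**Figure D5:**
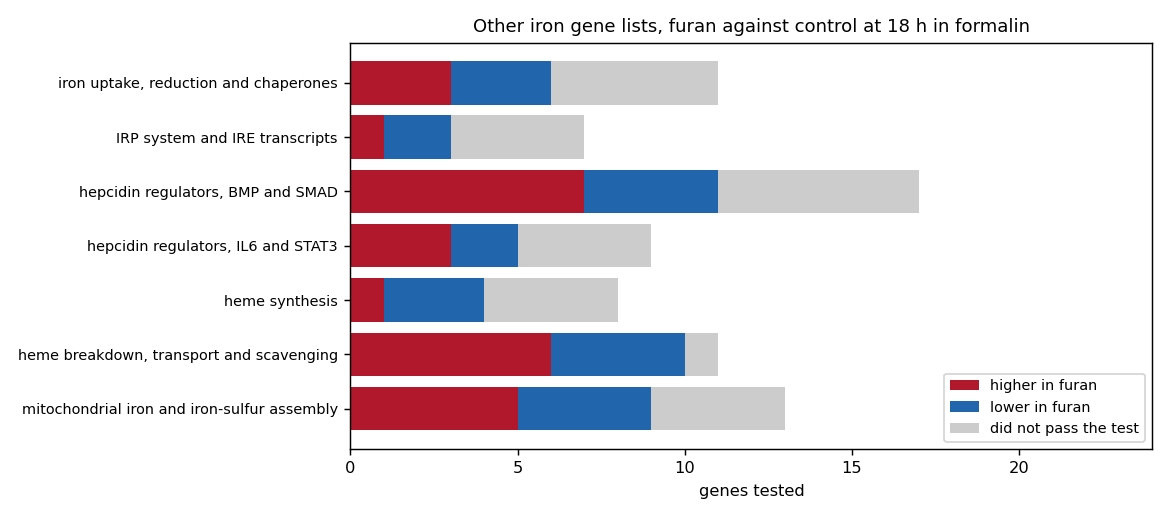
Number of genes tested (horizontal axis) in each of the 7 other iron gene lists, split into those higher in furan, lower in furan and not past the test at 18 h in formalin. Each list holds genes of both directions, from 1 higher and 2 lower of 7 to 7 higher and 4 lower of 17. The split shifts to 39 higher and 14 lower of 76 genes with median centring.

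Most markers of hepatocytes, the cells that make hepcidin and transferrin, were lower in furan livers at 18 h. Of 10 hepatocyte markers 8 were lower and none higher, with a median difference of -0.71, where 26.8% of all tested probes were called lower. The 2 markers not called were Apob (-0.14) and Ahsg (0.05). Of the 12 member probes above background in both 18 h groups, 5 were called lower and 1, Hfe, was called higher. Marker counts are given with loess only. The mean ratio of the list ran from -0.16 to 0.03 over furan samples and from 0.47 to 0.62 over control samples, and all 10 were above background on every array. Of 8 tested erythroid markers 5 were lower (median -0.43, list mean -0.63 to -0.30 in furan and -0.03 to 0.18 in control samples), and of 10 Kupffer cell and macrophage markers 1 was higher and 4 were lower (median -0.08, list mean -0.20 to -0.02 in furan and -0.14 to 0.68 in control samples). Of the other lists at 18 h, endothelial markers had 2 higher and 3 lower of 8, stellate and fibroblast markers 2 and 4 of 9, lymphocyte markers 0 and 2 of 5, cholangiocyte markers 0 and 1 of 2, and neutrophil markers 0 and 0 of 3. At 3 weeks no marker of these lists passed the test in limma. Hepatocyte list means there ran from -1.0 to -0.56 in furan and from -0.68 to -0.24 in control samples. The part of these markers, and of the larger share of probes above background in furan livers, in the values of Hamp, Hamp2, Trf and Cp was not tested.

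The genes whose pattern over the 15 samples was most like that of Hamp were Gys2, the liver glycogen synthase (Pearson r = 0.976), Amy1, an amylase (0.969), Scd3, a fatty acid desaturase (0.966), Slc38a3, a glutamine transporter (0.965), and Fads2, a fatty acid desaturase (0.965), out of 13042 genes compared. Hamp and Hamp2 correlated at 0.906. These coefficients are descriptions over samples that share the 4 groups and the pooled channel, so the time in formalin enters each of them.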

How the data were processed

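The samples were 15 liver samples in 4 groups on 16 arrays on 2 slides, each slide holding 2 arrays of every group. The deposited scanner files hold spot and local background intensities (medians of pixels, Cy5 sample and Cy3 pool), made with Agilent Feature Extraction 11.0.1.1 per the file headers. Per the file headers they also hold a log10 ratio of Cy5 over Cy3, taken after Agilent's own background and dye steps. The authors' value table holds log2 ratios of sample over pool, as read from its values: over the tested probes its slope was 0.905 to 0.999 (r 0.929 to 1.0) on log2 ratios computed here by loess without background subtraction, and 0.37 to 0.569 on Agilent's background-subtracted ratios. Its direction follows from these slopes, and how it was normalized and centred is not given in the sources used here. Its column medians were 0.000797, 0.0033, -0.0051 and 0.00438 in 18 h controls 2, 3, 4 and 6, 0.0247, 0.0204, 0.0163 and 0.0187 in 18 h furan samples 41 to 44, -0.00872, -0.00919, -0.00159 and -0.00869 in 3-week controls 2.1, 2.2, 4 and 6, and -0.00715, -0.00825, -0.00445 and -0.00133 in 3-week furan samples 41 to 44.

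Signals were corrected with normexp (offset 50) and normalized by loess within each array. Spots flagged as outliers (187 to 308 per array) and control spots were left out, and spots of a probe were averaged. Probes well above background on at least 3 arrays of some group were tested with limma 3.58.1 in R 4.3.3 (Benjamini-Hochberg adjustment, threshold 0.05, slide as a term), after a test on simulated data. Python 3.11.15 with pandas 2.3.3 and matplotlib 3.10.9 read the promoters and drew the plots. Of 55681 probes, 27235 were named from RefSeq by accession and 28446 were not. Because the offset of 50 is added to both channels, the ratios of dim spots are drawn towards 0. The number of arrays limits the precision. Each limma p-value sets a difference between groups against the spread between samples within groups, as moderated over all probes. A dye effect cancels only between groups.

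Named were all members with every probe, up to 2 called genes per other iron list and furan comparison with the smallest p and no overlap between groups, and the 5 genes most like Hamp. A gene that this rule names is not reported here. Members and lists were chosen with earlier results of these data known. Alternatives were the background correction, the normalization, Agilent's and the authors' ratios, the filter, the brightest probe per gene, the slide, arrays 2.1 and 2.2 as separate samples, all groups in 1 fit, the sample number as a block, and leaving out each sample.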

Additional observations from a re-analysis of the deposited data

Results flagged for a closer look

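No member probe had a sample far from the rest of its group, by Dixon's test on the 42 member probe groups of 4 samples. Among 90 such groups in all, 3 stood out, and chance alone singles out about 1 in 20. Hp in 3-week furan sample 43 was at 0.57, with the nearest other sample at 0.16. Ppox in 18 h control 2 was at 0.86, with the nearest at 0.41, and Slc25a37 in the same sample was at 0.61, with the nearest at 0.93.

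Of the 76 other iron genes, 18 were called for a change in the furan difference between the times (11 higher and 7 lower at 3 weeks). Each gene was counted by its brightest probe. Among all tested probes 12.8% were called for this change (7.82% higher and 4.93% lower). The genes named here were picked for their large 18 h values, which enter the same contrast, so their changes are a description. The furan difference of 10 of them differed between 3 weeks and 18 h in limma's test of that change (3 weeks minus 18 h). Higher at 3 weeks were Cdc42bpa by 0.76 (adjusted p = 0.00434), Hmox2 by 0.64 (0.0141), Ppox by 0.72 (0.0188), Eng by 0.60 (0.0351), Lrp1 by 0.55 (0.0174), Slc25a37 by 0.95 (0.0061) and Hjv by 1.24 (0.0057). Lower at 3 weeks were Acvr1 with -0.59 (adjusted p = 0.0199), Stat3 with -0.60 (0.0287) and Pcbp2 with -0.86 (0.00201). The furan differences of the first 7 genes at 3 weeks, in that order, were -0.19, -0.24, -0.36, -0.29, -0.31, 0.18 and 0.25, and those of Acvr1, Stat3 and Pcbp2 were 0.34, -0.04 and -0.14. Other probes of 5 of these genes had the opposite sign for this change: Stat3 with 0.83 (limma adjusted p = 0.0115), Acvr1 with 0.19, Slc25a37 with -0.30, Hmox2 with -0.08 and 1 of the 3 others of Cdc42bpa with -0.29, of which Stat3's was called. The calls of Eng and Stat3 were lost in 16 and 12 of 26 alternatives, and those of all 10 genes on each slide alone. Slides included, Ppox and Lrp1 each lost the call in 5 alternatives, Hmox2 and Acvr1 in 4, and Pcbp2 in 3. Cdc42bpa, Slc25a37 and Hjv lost it on the slides only. With the sample number as a block, the calls of Hmox2, Ppox, Acvr1, Eng, Stat3, Lrp1 and Pcbp2 were lost.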

How the results depend on the processing

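Hamp2 and Trf A_55_P2037585 kept their 18 h call in every alternative run, and Hamp in 17 of 18. Median centring in place of loess reversed Trf A_55_P2037584 (0.38), Ftl1 A_55_P1983959 (0.17) and Cp (0.26) at 18 h and Slc40a1 (-0.25) between the times. The cause was not tested. Member counts in this section are over all 13 tested probes, those of Tfrc included. At 18 h, 4 member probes were called with the brightest probe per gene (fewer probes tested), on slide 1 (8151 probes in all) and on slide 2 (7049). Those on slide 1 included Tfrc A_65_P06446, which was tested only through its high group. At 3 weeks the probes called were 449 without background subtraction, 2317 (4 of members) with median centring, 312 in the authors' table, 72 without the slide term, 265 on slide 2, 322 with arrays 2.1 and 2.2 apart and 1299 with all groups in 1 fit. Limma called 0 there with Agilent's ratio (3564 at an unadjusted p under 0.05) and 0 on slide 1 (2192). For the change in the furan difference, 2286 probes (2 of members) were called with Agilent's ratio, 2222 without the filter, 0 on slide 1 (5761 at an unadjusted p under 0.05) and 1 on slide 2. The 2 members with Agilent's ratio were Trf A_55_P2037585 and Tfrc A_65_P06446, the latter not above background at 3 weeks. Member probes called for the change were 1 without background subtraction and 2 in the authors' table.

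Leaving out 1 sample gave 12086 to 13045 probes at 18 h (members 5 to 7), 0 to 770 at 3 weeks (0 without control 6, 770 without control 4; members 0), 2548 to 4006 for the change (members 0 to 1) and 21436 to 21968 between the times (members 11 to 13). The share of calls higher in furan at 18 h was 43.2%, and 78.6% with median centring, 55.0% in the authors' table. At 3 weeks it was 74.3%, and 89.9%, 53.8% and, without background subtraction, 45.4%. For the change it was 61.3%, and 27.5% with median centring and 44% in the authors' table, and between the times 50.3% and 24.7% with median centring.

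Samples of the same number at both times correlated in their deviations at 0.0188 to 0.182 over 7 pairs. Of these, 5 of 7 correlated best with their own number, a hint from the data and not the design. Samples of the same number also lay on the same slide at both times, except that number 2 was on both slides at 3 weeks. The deviations were not adjusted for the slide, and its part in these correlations was not tested. With a replicate block 1565 probes (0 of members) were called for the change and 20242 (11 of members) between the times. Dim signal limits the Tfrc probes, which were not above background at 3 weeks.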

Other observations

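Samples that carry the same number at 18 h and at 3 weeks lay on the same side of their group mean for Hamp2 in 7 of 7 numbers. Number 6 lay at 0.57 at 3 weeks and 0.88 at 18 h, number 41 at 0.63 and 0.51, and number 42 at -0.44 and -0.64. For Hamp the side was the same for 5 of 7. For Slc40a1, Tfr2 and Trf A_55_P2037584 it was also 5 of 7, and for Hfe and Ftl1 A_55_P1968245 it was 4 of 7. Trf A_55_P2037585, Fth1, Ftl1 A_55_P1983959 and Cp each had 3 of 7, and the 3 Tfrc probes had 3, 2 and 1 of 7. Samples of the same number also shared a slide, except that number 2 was on both slides at 3 weeks. The labels do not say whether a number stands for 1 animal, and these counts are given without a test.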
